A study of Mus musculus with 4 samples.

Results

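The keratin genes on a mouse whole-genome array were followed in lung RNA of Pla2g3 knockout and wild-type mice with and without antigen challenge. Members were all probes, other than control spots, whose gene symbol in the scanner files was Krt followed by a digit, with the keratin-associated Krtap genes left out. The rule used names only, but the keratins were taken up with earlier results of these data known, among them one for Krt76. It gave 67 of 39429 probes, which stand for 52 of 31123 genes. Of these probes, 32 map to chromosome 11, 30 map to chromosome 15 and 5 have no position in the files. The study covered 4 groups with 1 Agilent 1-colour array each: Pla2g3-/- antigen challenged, Pla2g3+/+ antigen challenged, Pla2g3-/- control and Pla2g3+/+ control. Each array received RNA pooled from 4 samples of whole lung, so an array is a mean over animals and the groups have no replicates. The challenge was an ovalbumin asthma model, with 10 µg of ovalbumin and 1.3 mg of alum injected on days 0 and 14, 1% ovalbumin aerosol for 30 min on days 26, 27 and 28, and harvest at 48 h. The same protocol is attached to every sample, so the treatment of the control mice is not stated. Strain, age and the deleted part of Pla2g3 are not stated either. Pla2g3 encodes a secreted phospholipase A2.

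Keratins are the intermediate filament proteins of epithelial cells. An acidic type I keratin joins a basic type II keratin to build a filament, so the genes are used in partnerships such as Krt18 with Krt8 in simple epithelia and Krt14 with Krt5 in the basal layer of stratified epithelia. In the mouse, most type I genes form a cluster on chromosome 11 and most type II genes a cluster on chromosome 15. In the airway, columnar cells carry Krt8, Krt18 and Krt19 and basal cells carry Krt5, while most other family members are known from epidermis, oral mucosa, cornea, nail and hair.

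The values came from 2 sources that carry the same 4 sample names, the scanner files (called scanner data) and the authors' value table. A level below is the log2 signal of a probe minus that of the array's 75th percentile probe, so that 0 is the 75th percentile and each unit is a 2-fold step. The table did not follow the scanner data. Across probes, arrays correlated at 0.986 to 0.992 within the scanner data and at 0.989 to 0.994 within the table, but only at 0.915 to 0.923 between a scanner file and its namesake in the table. Between a scanner file and a column of another name they correlated at 0.915 to 0.922. The sources are therefore given apart throughout, and they were normalized separately. Which of them holds the RNA of the named samples is not settled, so a fold between sources compares deposited values and may not compare measurements of the same RNA. Between 79.2% and 82.1% of probes were above background on each array, and 0 spots were saturated. The targeted gene went against the genotype labels. In the scanner data Pla2g3 had levels of 1.07 in the Pla2g3-/- challenged and 0.14 in the Pla2g3-/- control array, against -2.83 in the Pla2g3+/+ challenged and -3.05 in the Pla2g3+/+ control array. In the table it had 0.06 and -0.20 in the same Pla2g3-/- samples, against -4.60 and -4.66 in the Pla2g3+/+ samples. Whether the probe lies in the deleted part is not given, so arrays are called KO-labelled and WT-labelled below, and a direction between genotypes is one between labels. In the scanner data the KO-labelled control array stood apart in its thymocyte genes, which summed to 22.1 times the 75th percentile there and to 2.93 to 3.65 times on the other arrays. Goblet cell genes, a check of the challenge, were compared on challenge averaged over both genotype labels. At least 2-fold higher were 2 of 5 genes in the scanner data and 5 of 5 in the table. Of all genes, 5.18% and 3.2% differed at least 2-fold in either direction.

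Most keratin genes gave a signal in the scanner data, and fewer did in the table. In the scanner data 44 of the 52 genes were above background on all 4 arrays, 4 were above it on some arrays and 4 on none. The 4 without signal were the hair keratins Krt25, Krt26, Krt39 and Krt40. In the table, 32 genes were above background in all 4 columns, 9 in some and 11 in none. All 6 simple epithelial, all 3 basal and all 5 skin suprabasal genes were above background on every array of both sources. Of the 15 hair shaft and nail genes, 13 in the scanner data and 8 in the table were above background on at least 1 array, and Krt12, the type I keratin of the cornea, was above it only in the scanner data.

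**Figure D1:**
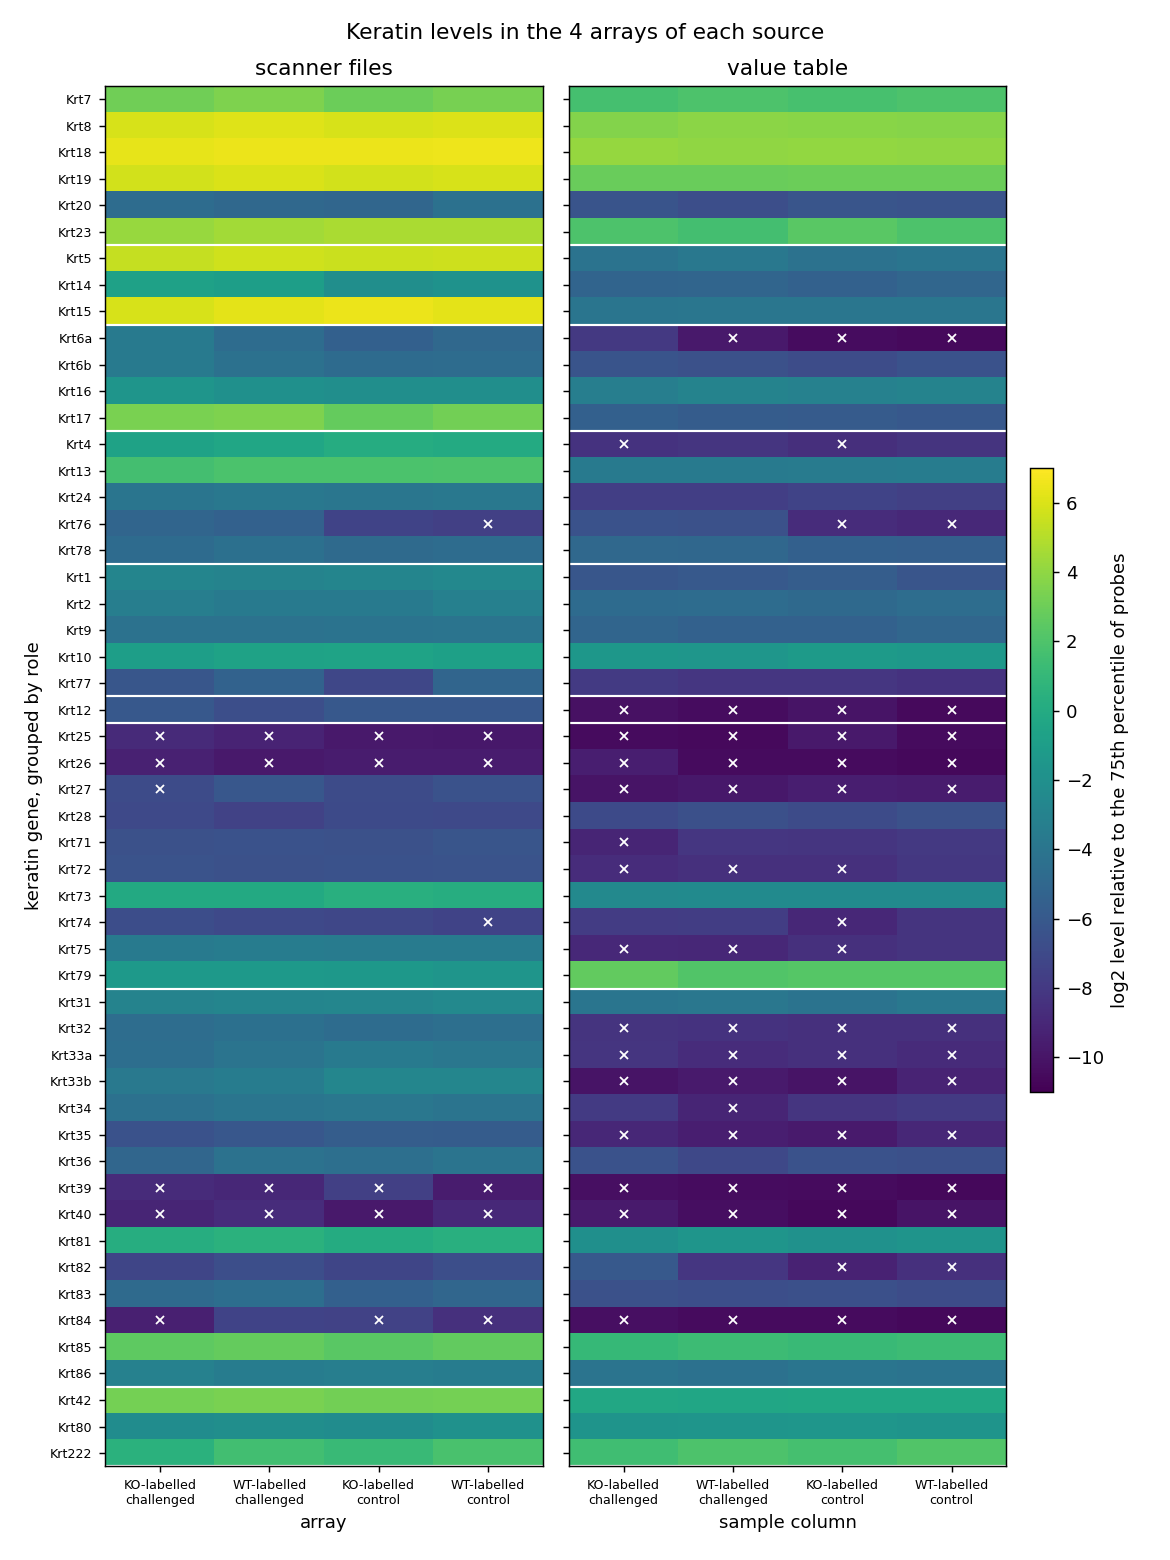
Level of each of the 52 keratin genes (rows, grouped by role) in the 4 arrays of the scanner data (left) and the 4 columns of the value table (right), as log2 relative to the 75th percentile of probes. A white cross marks a value at background, as for 11 genes in every column of the table. Within each panel the 4 columns look alike, while the panels differ in the basal, wound and mucosal rows.

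The largest contrast in the keratin values was between the sources and not between groups. The mean level over 4 arrays was at least 2-fold higher in the scanner data than in the table for 41 of the 48 keratins above background in either source, and at least 2-fold lower for 1. Values at background enter these means. With such values set to the lowest level above background, Krt74, Krt82 and Krt84 differed by 0.95, 0.80 and 0.82 and are not shown to pass 2-fold. Krt25, Krt26, Krt39 and Krt40, at background in both sources, also read 0.66 to 1.70 higher in the scanner data. Over all 27708 genes, 29.1% were higher and 15.6% lower by that measure in the scanner data. The median difference, scanner data minus table, was 2.23 for keratins and 0.42 for all genes. The median keratin difference varied by 0.16 (SD) over the 4 sample names. No test was made between the sources, because they were normalized separately, and a lower level in whole lung cannot separate fewer cells of a type from less RNA per cell.

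The gap was widest in the basal keratins. Krt15, a type I keratin of basal cells, had scanner levels of 5.93 (KO-labelled) and 6.28 (WT-labelled) in the challenged arrays and 6.44 (KO-labelled) and 6.27 (WT-labelled) in the control arrays. Its table levels were -3.98 and -3.90 in the same challenged samples and -3.96 and -3.90 in the same control samples. Every scanner value therefore lay above every table value, by at least 9.83. Krt5, the type II keratin of basal cells, had scanner levels of 5.43 (KO-labelled) and 5.68 (WT-labelled) in the challenged arrays and 5.53 (KO-labelled) and 5.65 (WT-labelled) in the control arrays. Its table levels were -4.15 and -3.82 in the challenged and -4.24 and -4.00 in the control samples. The mean differences of 10.16 for Krt15 and 9.62 for Krt5 are 1148-fold and 789-fold. Krt14, the type I partner of Krt5, differed by 3.85. Trp63, the transcription factor of basal cells, did not show this gap. It had scanner levels of 1.01 to 1.68 and table levels of 1.16 to 1.62. The list of 5 airway basal genes that holds Trp63 did differ, with a median mean level of 1.65 in the scanner data and -2.10 in the table.

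Some keratins of stratified and wounded epithelium also differed widely, and others little. The median difference, scanner data minus table, was 3.62 for the 4 wound keratins, 3.68 for 5 mucosal suprabasal and 1.29 for 5 skin suprabasal keratins, beside 9.62 for the 3 basal ones. Krt17, a type I keratin induced after injury, had scanner levels of 3.35 (KO-labelled) and 3.53 (WT-labelled) in the challenged arrays and 2.78 (KO-labelled) and 3.17 (WT-labelled) in the control arrays, and table levels of -5.51 and -5.73 in the challenged and -5.84 and -6.06 in the control samples. Krt16 of the same group differed by 1.11 and Krt6b by 2.23. Krt4, the type II keratin of the oesophageal and oral suprabasal layers, had scanner levels of -0.65 (KO-labelled) and -0.31 (WT-labelled) in the challenged arrays and 0.12 (KO-labelled) and -0.01 (WT-labelled) in the control arrays. In the table it had -8.36 and -8.24 in the challenged and -8.54 and -8.26 in the control samples, with both KO-labelled values at background. Its mean was at least 258-fold higher in the scanner data. Krt13, the type I partner of Krt4, was higher by 5.41, and Krt6a by at least 3.65. Of the same mucosal group, Krt78 differed by 0.61.

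Krt13 was measured with 2 probes that lie in different stretches of its transcript, and they are shown because the size of the gap depended on the probe. The probe from transcript position 279 (chr11:99982471-99982530, minus strand) and the probe from position 885 (chr11:99980412-99980471, minus strand), with positions on mm9 as in the files, read:
Krt13 A_51_P307964: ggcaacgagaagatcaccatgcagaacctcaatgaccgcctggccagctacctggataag
Krt13 A_55_P2006296: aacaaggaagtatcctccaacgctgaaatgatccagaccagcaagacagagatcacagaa
The first probe had scanner levels of 1.63 (KO-labelled) and 1.93 (WT-labelled) in the challenged and 1.88 (KO-labelled) and 1.95 (WT-labelled) in the control arrays. Its mean levels were 1.84 in the scanner data and -3.57 in the table, where it had -3.66 and -3.66 in the challenged and -3.51 and -3.44 in the control samples. The other had 0.57 in the scanner data and -8.68 in the table, where both challenged values were at background.

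Simple epithelial keratins were above background everywhere and differed less. Krt18 had scanner levels of 6.33 (KO-labelled) and 6.50 (WT-labelled) in the challenged arrays and 6.49 (KO-labelled) and 6.51 (WT-labelled) in the control arrays, and table levels of 4.16 and 4.05 in the challenged and 4.07 and 3.99 in the control samples. Its type II partner Krt8 had scanner levels of 5.90 (KO-labelled) and 6.13 (WT-labelled) in the challenged and 5.89 (KO-labelled) and 6.05 (WT-labelled) in the control arrays, and table levels of 3.69 and 3.88 in the challenged and 3.80 and 3.71 in the control samples. Both genes lay between 5.89 and 6.51 on every scanner array. Krt19, a type I keratin of ducts and airway epithelium, had scanner levels of 5.74 (KO-labelled) and 5.95 (WT-labelled) in the challenged and 5.79 (KO-labelled) and 5.91 (WT-labelled) in the control arrays, and table levels of 2.86 and 2.92 in the challenged and 2.98 and 2.96 in the control samples. Krt7, a type II keratin of simple glandular epithelia, had scanner levels of 3.09 (KO-labelled) and 3.49 (WT-labelled) in the challenged and 2.96 (KO-labelled) and 3.33 (WT-labelled) in the control arrays, and table levels of 1.66 and 1.95 in the challenged and 1.75 and 1.95 in the control samples. The mean differences of the 6 simple epithelial genes, Krt7, Krt8, Krt18, Krt19, Krt20 and Krt23, ran from 1.39 for Krt7 to 2.92 for Krt19, with a median of 2.31.

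A few keratins ran level or the other way. Krt79, a type II keratin of the upper hair follicle and sebaceous duct, was the gene at least 2-fold lower in the scanner data. Its scanner levels were -1.32 (KO-labelled) and -1.27 (WT-labelled) in the challenged and -1.37 (KO-labelled) and -1.60 (WT-labelled) in the control arrays. In the table it had 2.67 and 2.12 in the challenged and 2.24 and 2.27 in the control samples, so the scanner mean was 3.72 lower. Krt222 differed by -0.54, Krt80 by -0.49 and Krt28 by -0.38, all within a 2-fold range. The hair shaft and nail genes had a median difference of 2.23 over 13 genes, and the hair follicle sheath genes one of 1.97 over 8 genes.

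**Figure D2:**
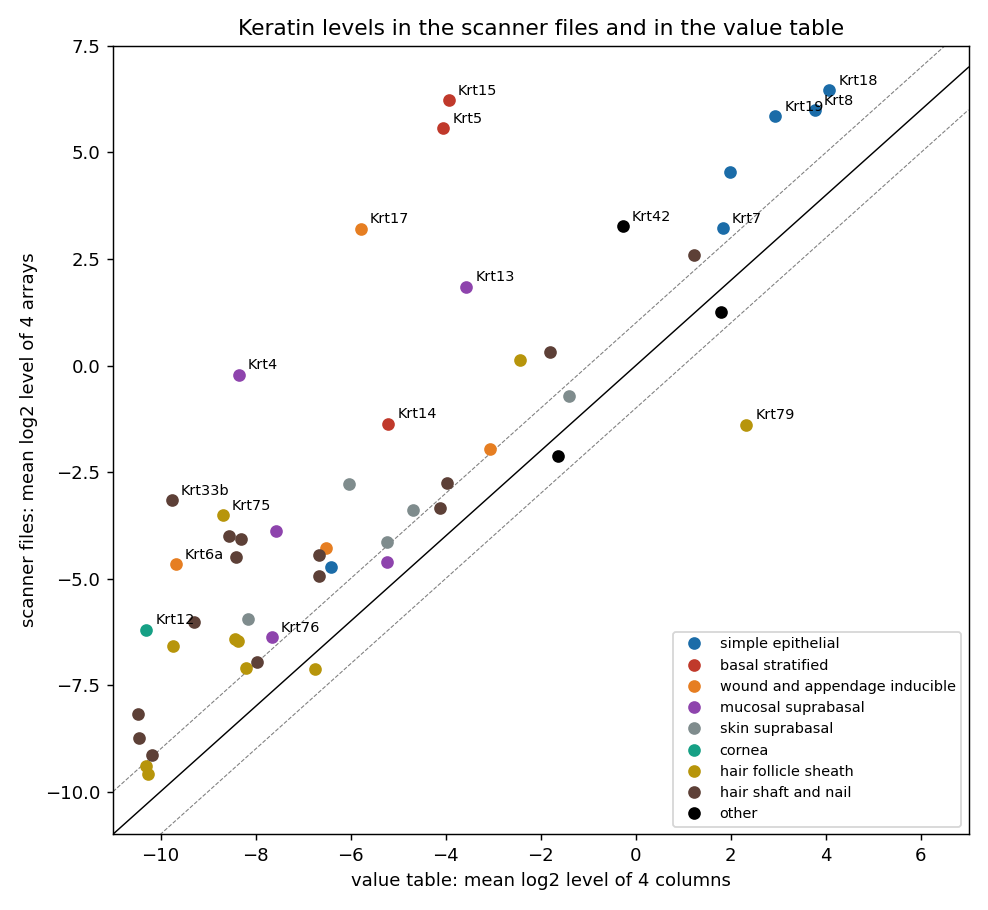
Mean log2 level of each keratin over the 4 scanner arrays (vertical axis) against its mean over the 4 table columns (horizontal axis), coloured by role. The solid line marks equal levels and the dashed lines a 2-fold difference. Krt15, Krt5, Krt17 and Krt4 lie farthest above the line, the simple epithelial genes lie 1.39 to 2.92 above it, and Krt79 lies below it.

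Markers of other cell types also differed between the sources, some in the direction of the keratins and some in the other. Airway basal genes, 5 of 5 above background on every array, summed to 53.6 to 62.7 times the 75th percentile in the scanner data and to 4.73 to 6.19 times in the table. Club cell genes, 6 of 6 above background, summed to 838 to 958 times in the scanner data and to 198 to 223 times in the table. Alveolar and endothelial markers ran the other way. Alveolar type I genes summed to 5.95 to 8.28 times in the scanner data, where 4 of 5 were above background on all 4 arrays, and to 64.6 to 76.9 times in the table. Alveolar type II genes summed to 51.8 to 60.1 times in the scanner data and to 278 to 298 times in the table. Endothelial genes summed to 3.49 to 4.58 times in the scanner data and to 57.6 to 59.1 times in the table, so the lung label had less of its alveolar and endothelial markers in the scanner data. Mesothelial genes summed to 91.4 to 108 times in the scanner data and to 8.01 to 8.75 times in the table. The median mesothelial gene went the other way, with a mean level of -2.34 in the scanner data and -0.73 in the table. Cartilage genes summed to 6.64 to 8.12 and to 0.55 to 0.93 times, with median levels of -5.82 and -6.55. Thyroid genes summed to 0.57 to 2.21 and to 0.04 to 0.06 times. Heart muscle genes summed to 0.26 to 0.29 times in the scanner data and to 33.9 to 53.9 times in the table. The part of these markers in the keratin difference was not tested.

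Probes of the same gene did not always show the same difference between the sources. There were 13 genes with several probes, and 39 had 1 probe. The 2 probes of Krt10, a type I keratin of differentiated epidermis, had mean levels of -0.71 and -0.73 in the scanner data but of -3.94 and -1.41 in the table. Krt5's other probe had a mean of 0.51 in the scanner data and was at background in every table column. Both Krt40 probes, and the dimmer probe of Krt2 and of Krt12, were at background in both sources.

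**Figure D3:**
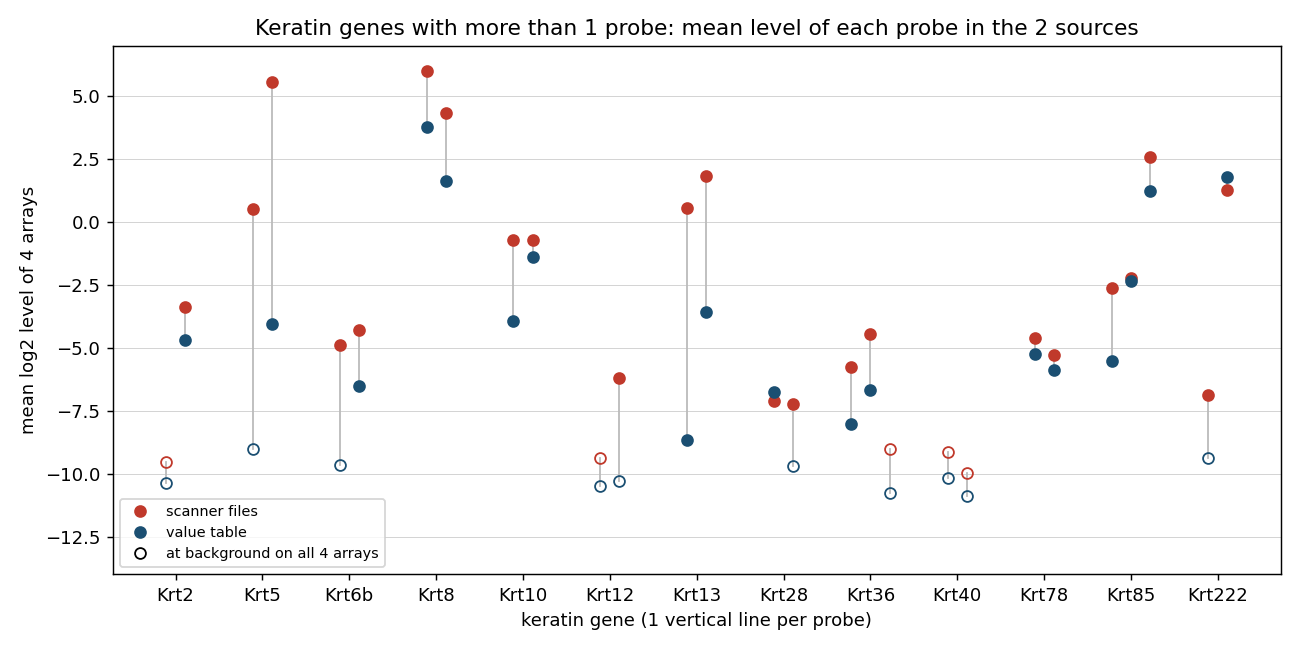
Mean log2 level of each probe of the 13 keratin genes with more than 1 probe, in the scanner data (red) and in the value table (blue). Each grey line joins the values of 1 probe, and open circles were at background on all 4 arrays. The 2 probes of Krt10 meet in the scanner data and are apart in the table.

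Some keratin probes resemble each other closely enough that a gene's signal may not be its own. Among all 2211 pairs of the 67 probes, the longest identical run between different genes joined Krt81 and the gene the files call Krt83, whose transcript NM_001003668 the RefSeq reference names Krt87. Their probes share a run of 24 bases and 51 of 55 aligned bases. The Krt81 probe also shares a run of 16 bases and 51 of 57 aligned bases with a Krt85 probe. Whether a probe reads the transcript of another keratin was not tested. Krt81 and Krt83 are type II hair keratins, and their probes are shown because of this likeness, with the shared run in capitals:
Krt81 A_55_P1966445: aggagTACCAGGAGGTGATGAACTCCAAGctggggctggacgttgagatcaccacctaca
Krt83 A_55_P1966450: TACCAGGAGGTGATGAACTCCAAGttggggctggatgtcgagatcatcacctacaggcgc
The Krt81 probe lies at chr15:101290583-101290642 and the Krt83 probe at chr15:101263556-101263615 (both minus strand, mm9). The Krt81 probe had mean levels of 0.31 in the scanner data and -1.81 in the table. The Krt83 probe had -4.95 in the scanner data and -6.67 in the table.

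Antigen challenge was compared with control within each genotype label. Few keratins differed, and Krt76 was the member at least 2-fold higher on challenge under both labels in both sources. Krt14 and the wound keratins Krt6a and Krt6b also passed 2-fold, upward, in the KO-labelled scanner pair. Of 10 keratins listed for the airway (Krt4, Krt5, Krt7, Krt8, Krt13, Krt14, Krt15, Krt17, Krt18 and Krt19), all but Krt14 stayed within 2-fold in every pair of both sources. With 1 array per group a difference within a pair has no p-value.

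Krt76 encodes a type II keratin of the palate and other oral mucosa. In the scanner data it had levels of -5.10 in the KO-labelled challenged array, against -7.39 in the KO-labelled control array. The WT-labelled challenged array had -5.40, against -7.62 in the WT-labelled control array, where it was at background. Both challenged values thus lay above both control values. The difference was 2.29, with an error of 0.36 from the scanner software, in the KO-labelled pair (4.89-fold) and at least 2.22 in the WT-labelled pair (4.66-fold). In the table it had -6.48 and -6.52 in the KO-labelled and WT-labelled challenged samples, against -8.72 and -8.92, both at background, in the KO-labelled and WT-labelled control samples. The challenged samples were at least 3.71-fold higher in the KO-labelled and at least 4.06-fold higher in the WT-labelled pair. The size depends on how background is handled: with a normexp correction and an offset of 50, the scanner differences were 0.65 and 0.58. Of all genes, 0.983% in the scanner data and 0.757% in the table were at least 2-fold higher on challenge under both labels, and of keratins 1 of 48 and 1 of 41. Lower under both labels were 0 keratins in either source, beside 0.668% and 0.184% of all genes.

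The 250 bases before the start of Krt76 are shown because it was the keratin at least 2-fold higher on challenge in every pair. They come from RefSeq (GRCm38.p6, chr15:101892921-101893170, minus strand) and are written 5′ to 3′ along the gene, with a TATAAA match in capitals that begins 29 bases upstream of the start:
Krt76: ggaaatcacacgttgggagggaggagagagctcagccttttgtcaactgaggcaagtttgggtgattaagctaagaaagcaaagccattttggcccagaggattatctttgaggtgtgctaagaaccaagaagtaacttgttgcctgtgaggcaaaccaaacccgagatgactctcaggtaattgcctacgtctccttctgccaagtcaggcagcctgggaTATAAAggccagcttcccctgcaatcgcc
RefSeq windows of 300 bases were found for 35 of the 52 genes, 36 windows in all. On either strand, TATAAA occurred in 19 of these windows (52.8%) and in 13.6% of the 32851 windows of all genes. GGGCGG occurred in 5.56% of keratin windows and in 35.7% of all windows. TGANTCA, the letters bound by AP-1 factors, occurred in 5.56% of keratin windows, both of them windows of Krt13, and in 7.81% of all windows. The windows describe letters and do not show binding.

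In the KO-labelled pair of the scanner data, 4 of 47 keratins (8.51%) differed at least 2-fold on challenge, all 4 of them higher. Of all genes 8.73% differed and 4.38% were higher. The 4 were Krt76, Krt6a, Krt14 and Krt6b. Krt6a, a type II keratin of wounded and hyperproliferative epithelium, had -3.61 in the KO-labelled challenged array, against -5.49 in the KO-labelled control array. In the WT-labelled pair it had -4.61 in the challenged array, against -4.95 in the control array. The KO-labelled difference of 1.89, with an error of 0.22, exceeded the WT-labelled difference of 0.33 by 1.55, which was not tested. Its KO-labelled difference was 0.95 with the normexp correction. In the table Krt6a was above background only in the KO-labelled challenged sample, at -7.99, which is at least 1.3-fold over the KO-labelled control sample.

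Krt6b, a near copy of Krt6a in the same cluster, had -3.59 in the KO-labelled challenged array, against -4.69 in the KO-labelled control array, and -4.26 in the WT-labelled challenged array, against -4.64 in the WT-labelled control array. It was 2.14-fold higher in the KO-labelled pair, a log2 difference with an error of 0.21, which was 0.65 with the normexp correction. The other Krt6b probe was 2.13-fold higher. In the table Krt6b differed by 0.45 in the KO-labelled and by -0.07 in the WT-labelled pair.

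Krt14 was higher in both challenged arrays of the scanner data. It had -0.66 in the KO-labelled challenged array, against -2.09 in the KO-labelled control array, and -0.89 in the WT-labelled challenged array, against -1.81 in the WT-labelled control array. Both challenged values lay above both control values, with differences of 1.43 (2.69-fold) and 0.92 (1.89-fold) and an error of 0.20 each. Its partner Krt5 differed by -0.10 and 0.03 in the same pairs. In the table Krt14 differed by 0.17 in the KO-labelled and by -0.03 in the WT-labelled pair.

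The remaining wound keratins stayed within 2-fold in every pair. Krt17 differed by 0.58 in the KO-labelled and 0.35 in the WT-labelled pair of the scanner data, and by 0.32 and 0.33 in the table. Krt16, the type I partner of Krt6a and Krt6b, differed by 0.48 and 0.09 in the scanner data and by -0.15 and 0.00 in the table. The median of the 4 wound keratins, averaged over both labels, was 0.60 in the scanner data and 0.26 in the table, beside medians of all genes of -0.05 and 0.01.

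**Figure D4:**
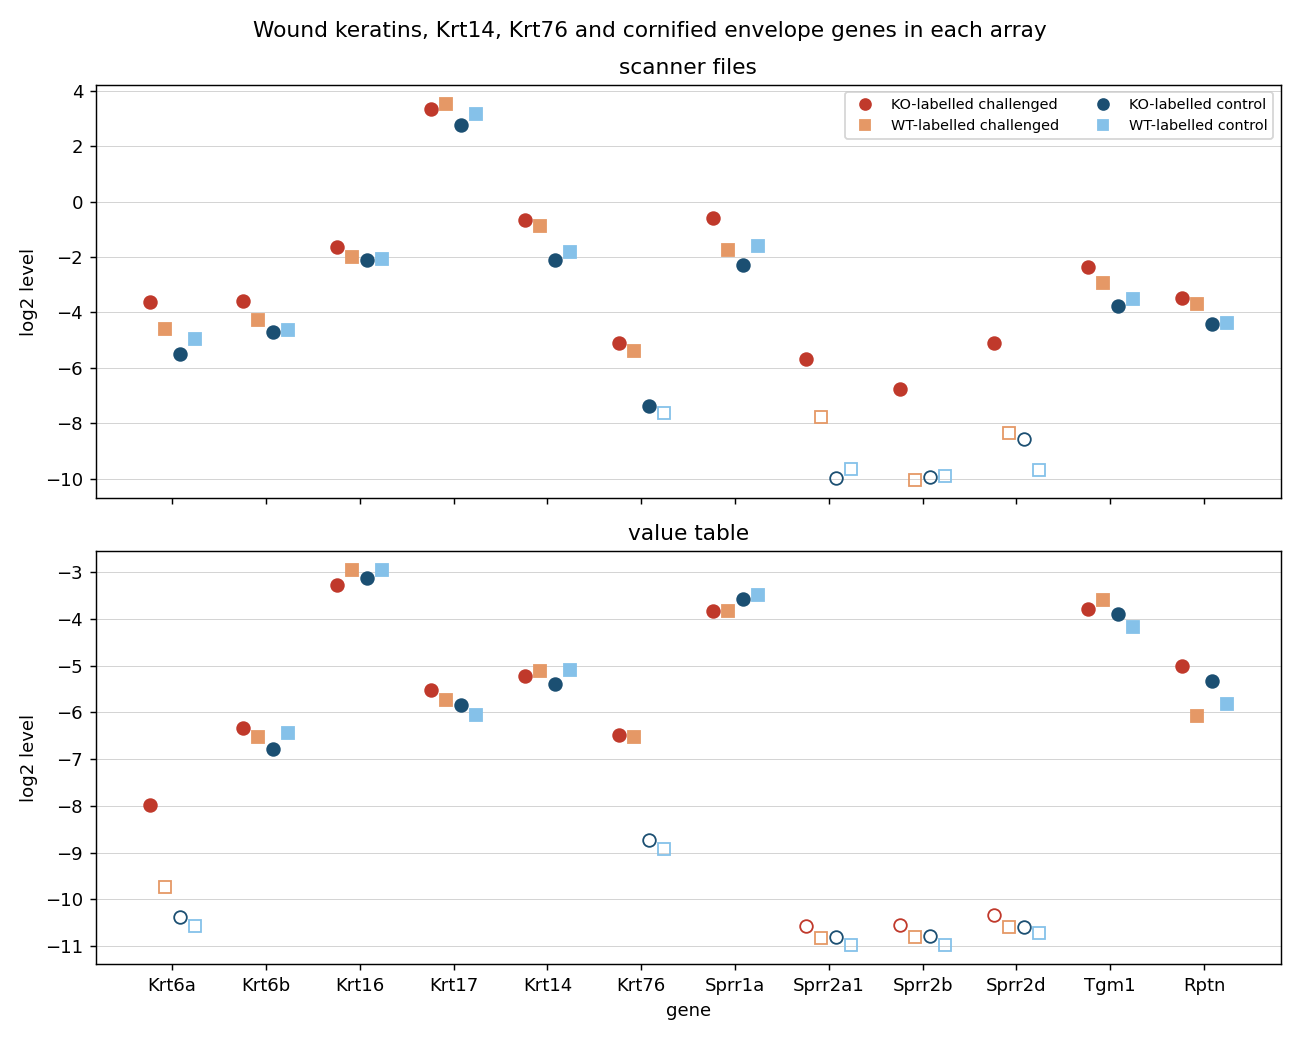
Log2 levels of the wound keratins, Krt14, Krt76 and 6 cornified envelope genes in each array of the scanner data (top) and each column of the value table (bottom). The 6 envelope genes, of 13 on the array, include the 5 counted as at least 2-fold higher in the KO-labelled scanner pair. Circles are KO-labelled and squares WT-labelled, warm colours are challenged and blue ones control, and open symbols are at background. Krt76 is higher in both challenged samples of both panels, while Krt6a, Sprr2a1, Sprr2b and Sprr2d are highest in the KO-labelled challenged array.

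In the WT-labelled pair of the scanner data, 2 of 48 keratins (4.17%) differed at least 2-fold, both higher, beside 4.38% of all genes in either direction. They were Krt76 and Krt84, a type II hair keratin that was above background only in the WT-labelled challenged array, at -7.39 and at least 1.23-fold over the control array. In the KO-labelled pair of the table, 4 of 38 keratins (10.5%) differed, all higher, where 4.58% of all genes differed and 3.23% were higher. The 4 were Krt76, Krt6a, Krt82 and Krt74, and every one of the 4 was at background in the KO-labelled control sample, so each entered the comparison only through the challenged sample. In the WT-labelled pair of the table, Krt76 was higher and the hair keratin Krt34 lower, 2 of 40 keratins (5%) beside 3.4% of all genes.

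Krt82, a type II keratin of the hair cuticle, showed how a single column decided a table value. It had -5.96 in the KO-labelled challenged sample of the table, against -9.31 in the KO-labelled control sample, which was at background. The WT-labelled challenged sample had -8.13, against -8.51, at background, in the WT-labelled control sample. Its KO-labelled difference was at least 5.29-fold. In the scanner data Krt82 differed by 0.03 and 0.05 in the KO-labelled and WT-labelled pairs.

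**Figure D5:**
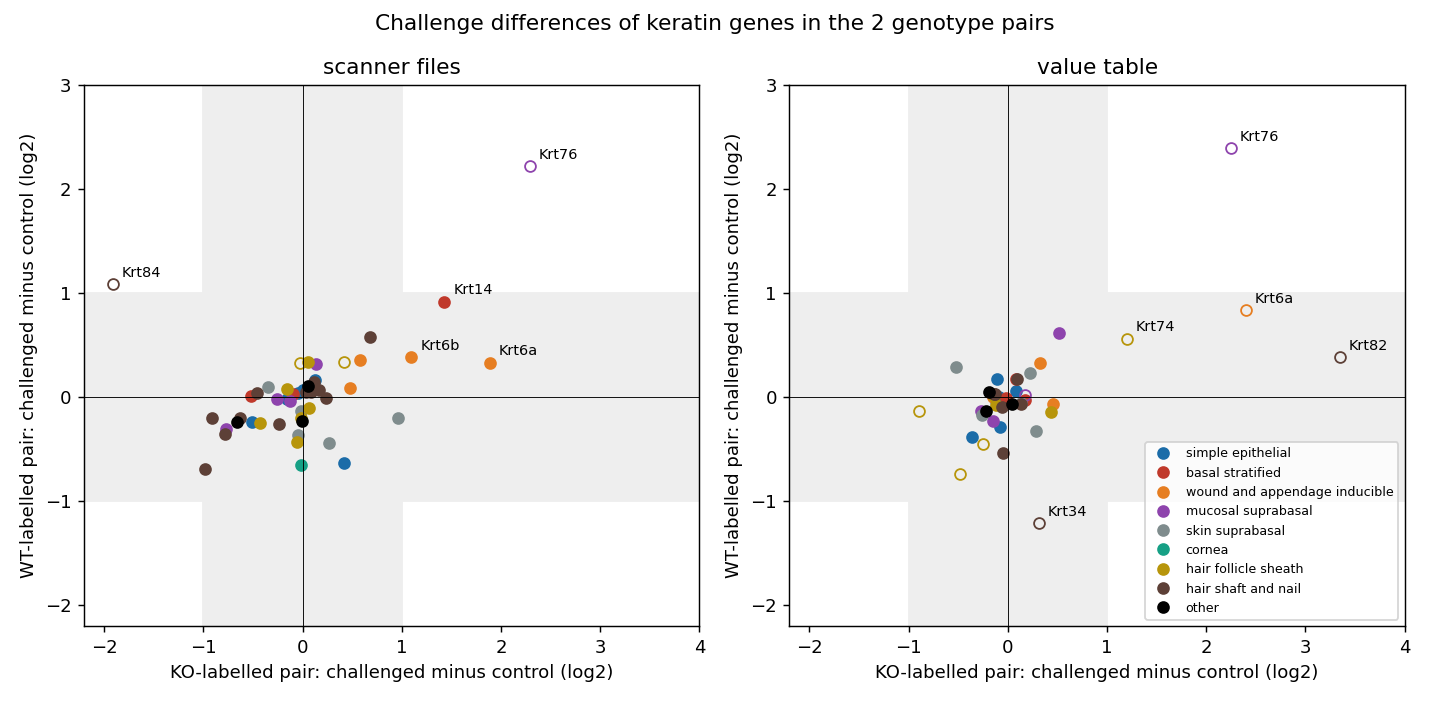
Log2 difference, challenged minus control, of each keratin in the KO-labelled pair (horizontal axis) and the WT-labelled pair (vertical axis), for the scanner data (left) and the value table (right). Open circles had at least 1 of the 4 values at background, the grey bands hold differences under 2-fold, and genes past 2-fold in either pair are named. Krt76 is the member in the upper right corner of both panels.

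The median keratin differed little between challenge and control. The median difference over keratins was -0.02 in the KO-labelled and 0.02 in the WT-labelled pair of the scanner data, beside -0.06 and -0.03 for all genes. In the table it was -0.04 and -0.03, beside 0.02 and 0.01 for all genes. The 6 simple epithelial keratins had averaged differences between -0.37 and 0.15 in the scanner data and between -0.37 and 0.07 in the table. Krt23, a type I keratin of glandular epithelia, was the lowest of these in both sources, with scanner differences of -0.51 and -0.23 and table differences of -0.36 and -0.38 in the KO-labelled and WT-labelled pairs.

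The averaged challenge effect could be tested with limma, in a fit of genotype label and treatment that leaves 1 residual degree of freedom. Averaged over both labels, 3 of 48 keratins differed at least 2-fold in the scanner data (Krt76, Krt14 and Krt6a, all higher), beside 5.18% of all genes, and 3 of 41 in the table (Krt76, Krt82 and Krt6a, all higher), beside 3.2% of all genes. Table values at background enter these averages. With such values set to the lowest level above background, the table folds were 3.88 for Krt76, 2.63 for Krt82 and 1.21 for Krt6a, so Krt6a is not shown to pass 2-fold there. In that limma fit 0 keratins passed an adjusted p of 0.05 in either source, as did 0 of all 26350 and 26039 genes tested. At an unadjusted p of 0.05, 6 of 48 keratins (12.5%) were under the threshold in the scanner data, beside 9.55% of all genes, and 7 of 41 (17.1%) in the table, beside 8.78% of all genes. Krt76 had an averaged difference of 2.25 in the scanner data (limma, adjusted p = 0.514) and of 2.32 in the table (limma, adjusted p = 0.466). In data simulated at this size the fit recovered 0 of 50 genes changed 4-fold in either source. It recovered 28 of 50 genes changed 16-fold in the scanner data and 30 of 50 in the table. It also called 7 unchanged genes in the scanner data and 5 in the table. The simulated noise was drawn from the fit and the share of changed genes was set, so recovery in the real arrays may differ.

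KO-labelled and WT-labelled arrays were then compared within each treatment. Krt6a was higher and Krt222 lower in the KO-labelled challenged array, and Krt77 was lower in the KO-labelled control array of the scanner data. In either source 0 keratins passed 2-fold in one direction under both treatments. Among all genes 1.05% were higher and 0.82% lower in that way in the scanner data, and 0.768% and 1.75% in the table.

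In the challenged arrays of the scanner data, 3 of 48 keratins (6.25%) differed at least 2-fold, beside 8.13% of all genes. Krt6a was 1.01 higher in the KO-labelled array (2.01-fold) and Krt222 was lower, with a difference of -1.06. Krt84 was at background in the KO-labelled challenged array, so only a bound of 1.05-fold lower holds for it. In the challenged samples of the table, 3 of 39 keratins (7.69%) differed, all higher in the KO-labelled sample, beside 5.77% of all genes in either direction. They were Krt82 (4.48-fold), Krt34 (at least 1.35-fold) and Krt6a (at least 1.3-fold). Krt34 and Krt6a were at background in the WT-labelled challenged sample.

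In the control arrays of the scanner data, Krt77 was the 1 keratin of 47 (2.13%) past 2-fold, beside 5.95% of all genes. Krt77, a type II keratin of epidermis and sweat ducts, had -6.20 with challenge under the KO label, against -5.32 with challenge under the WT label. The control arrays had -7.17 (KO-labelled), against -5.13 (WT-labelled). It was thus lower under the KO label in both treatments, by 0.88 and by 2.04 on the log2 scale, and the control difference was -0.55 with the normexp correction. In the table its differences were 0.23 and 0.24, in the opposite direction. In the control samples of the table, 0 of 38 keratins passed 2-fold, beside 5.1% of all genes.

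Krt222, a keratin-like gene beside the type I cluster on chromosome 11, was lower under the KO label on each treatment by its brighter probe. In the scanner data it had 0.50 (KO-labelled), against 1.56 (WT-labelled), with challenge, and 1.17 (KO-labelled), against 1.80 (WT-labelled), in the controls. In the table it had 1.48 (KO-labelled), against 1.95 (WT-labelled), with challenge, and 1.70 (KO-labelled), against 2.08 (WT-labelled), in the controls. Both KO-labelled values lay below both WT-labelled values in each source. Averaged over treatments the difference was -0.85 in the scanner data (limma, adjusted p = 0.435) and -0.43 in the table (limma, adjusted p = 0.277). Its dimmer probe did not follow in the scanner control arrays, with -6.32 (KO-labelled), against -6.57 (WT-labelled). In the challenged scanner arrays that probe did follow, with -5.71 under the WT label and a value at background, at least 3.37-fold lower, under the KO label. In every table column it was at background. Krt23 had averaged genotype differences of -0.12 in the scanner data and 0.39 in the table. In the limma fit of genotype label 0 keratins passed in either source, with 6 of 48 (12.5%, beside 10.8% of all genes) and 4 of 41 (9.76%, beside 13.8%) under an unadjusted p of 0.05. Averaged differences of at least 2-fold were seen for Krt77 in the scanner data (1 of 48, beside 5.7% of all genes) and for 0 of 41 in the table (beside 4.82%).

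Keratin filaments are anchored at desmosomes, which join cells, and at hemidesmosomes, which hold basal cells to the matrix, and the cornified envelope is laid down inside squamous cells that carry them. These lists were followed beside the keratins. Of the desmosome genes above background, 0 of 13 in the scanner data were at least 2-fold higher on averaged challenge and 1 was lower, which was Dsg3 at -1.15. Of all genes there, 5.18% differed in either direction. In the table, where 3.2% of all genes differed, 1 of 10 desmosome genes was higher and 0 lower. That gene, Dsg1a, was above background only in the KO-labelled challenged sample, at -5.04, against -10.72 in the KO-labelled control sample, and was at least 10.1-fold higher there. All 6 hemidesmosome genes stayed within 2-fold in both sources.

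Of the cornified envelope genes, 5 of 10 were at least 2-fold higher in the KO-labelled pair of the scanner data, beside 4.38% of all genes. Under the WT label 0 of 7 passed, where 4.38% of all genes differed in either direction. The table had 0 of 6 (KO-labelled) and 0 of 7 (WT-labelled), where 4.58% and 3.4% of all genes differed in either direction. The 5 in the KO-labelled scanner pair were Sprr1a (3.27-fold), Tgm1 (2.64-fold), Sprr2a1, Sprr2b and Sprr2d. The Sprr2 genes entered the comparison only through the array in which they were high. Among the 7 genes compared under both labels, only Sprr1a and Tgm1 passed in the KO-labelled pair. Sprr2d, a small proline-rich precursor of the envelope, had -5.11 in the KO-labelled challenged array, against -8.57 at background in the KO-labelled control array, at least 6.07-fold higher. Sprr2a1 was at least 4.09-fold and Sprr2b at least 1.92-fold higher in that pair, so Sprr2b is not shown to pass 2-fold. All 3 Sprr2 genes were at background on the other scanner arrays and in every table column. Tgm1, the transglutaminase that cross-links the envelope, had -2.37 in the KO-labelled challenged array, against -3.77 in the KO-labelled control array, and -2.94 in the WT-labelled challenged array, against -3.51 in the WT-labelled control array. The same KO-labelled pair of the scanner data differed by a median of -3.94 over 5 thymocyte genes and 1.26 over 5 endothelial genes. The 5 mesothelial genes differed by a median of 0.93. Their summed signal went the other way, at 91.6 in the KO-labelled challenged array, against 108 in the KO-labelled control array. The part of these marker genes in the keratin and envelope differences was not tested. Squamous mucosa markers, 6 of 6 above background in the scanner data, had medians of -0.11 in the KO-labelled and -0.04 in the WT-labelled pair, and airway basal markers had -0.12 and -0.06.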

How the data were processed

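Lung RNA of 4 groups was measured on Agilent 1-colour arrays, 1 array per group, grouped by the sample titles. Per the file headers, the deposited scanner files give each spot's intensity and probe positions on mm9. The software was Agilent Feature Extraction 11.5.1.1, per the submitters' processing notes. The authors' deposited value table gives a linear signal by probe and sample, and its making is not described in the sources used. Its columns have a 75th percentile of about 1.00 and genes are not centred.

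Both sources were taken to log2, and each array's 75th percentile was subtracted from the scanner values. From the table, with its 75th percentile of about 1.00, nothing was subtracted. The log2 and fold differences are therefore computed here from the deposited intensity and signal. The plan took the table for another version of the scanner values, and it was treated apart after its columns were seen not to follow them. Scanner probes counted as above background by Agilent's flag, and table probes above 5 times the median of negative controls, a rule that gave the flag's call for 99.2% of scanner spots. Uneven spots (20) were left out. A gene was represented by the probe with the highest mean level over the 8 columns, the same in both sources. A gene entered a pair if above background on at least 1 of its 2 arrays, and counted as different at 2-fold. Where 1 side was at background, the fold is a bound against the higher of its own value and the array's lowest value above background, which ranged from -7.82 to -7.47 in the scanner files and from -8.54 to -8.04 in the table. The printed error combines the software's error of both spots, and the number of arrays limits precision.

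The averaged effects were tested with limma 3.58.1 in R 4.3.3, with Benjamini-Hochberg adjustment over all genes above background on at least 1 array. The fit was tested on simulated data. Tables and figures used Python 3.11.15. The keratins and the gene lists were chosen with earlier results of these data known. Values in every array were to be given for 10 listed airway keratins, Krt76 and members at least 2-fold different in one direction in both pairs. Other members named were chosen after their values were seen. Alternatives were quantile normalization, normexp with an offset of 50, other filters on dim probes, the mean over probes of a gene, and a limma variance trend.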

Additional observations from a re-analysis of the deposited data

How the results depend on the processing

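Of 36 recounts of the keratins at least 2-fold different, 27 stayed within 1.5 times the reported count and 9 did not. With normexp and an offset of 50, which compresses dim probes by construction, the scanner counts were 1 (Krt14) on challenge in the KO-labelled pair, 0 in the WT-labelled pair, 1 (Krt222) between labels in the challenged arrays and 0 in the control arrays. With both arrays required above background, the count on challenge was 0 in the WT-labelled pair of the scanner data and 0 in both pairs of the table, and it was 1 (Krt82) between labels in the challenged samples of the table. With no filter, 2 keratins (Krt39 and Krt77) differed between labels in the scanner control arrays. A limma variance trend passed 2 keratins for genotype label in the table, Krt222 (limma, adjusted p = 0.033) and Krt23 (limma, adjusted p = 0.0356), which is 4.88% of 41 keratins beside 4.07% of all genes, and gave Krt76 adjusted p-values of 0.216 in the scanner data and 0.0854 in the table for challenge. The median keratin difference between the sources was 1.77 after quantile normalization over both together. Differences of single keratins were recomputed in 267 cases. A turn of direction was counted only where the reported difference was at least 2-fold, which most were not required to be, and 0 such turns were seen. No paired analysis was possible because each group has 1 array and the labels carry no replicate numbers, and for the same reason no array could be left out. Differences against a value at background, as for Krt76 in the WT-labelled scanner pair and Krt82 and Krt74 in the KO-labelled table pair, are only bounds.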
